A study of Mus musculus with 6 samples.

Results

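The array signal of 79 small RNA genes was examined in RET cells, a mouse melanoma cell line: 47 box C/D small nucleolar RNAs (Snord genes), 26 H/ACA small nucleolar RNAs (Snora), 5 small Cajal body RNAs (Scarna) and 1 gene of 5S ribosomal RNA (n-R5s136). They were taken from the 22180 genes that the platform annotation names on the array by the start of their symbol, from 82 rows of the value table that carry exactly 1 such symbol. Scarna17, Snora19 and Snora33 had 2 rows each, and there the row was selected on the higher mean intensity over the 6 arrays. No other measured value entered the rule, although the set was proposed with results of these arrays in view. Another 46 rows that pair such a symbol with other symbols were left out. The cells were transduced with a short hairpin RNA against Angpt2 (Angpt2 shRNA-1, n = 3) or with a non-targeting shRNA (n = 3), so both groups carry a hairpin. The strain is given as C57BL/6 for all samples, and GFP appears in the titles of the control samples, with no meaning read into it. The sources used here do not give whether the transduced lines were clones or pools. After 24 h of culture, 100 ng of total RNA per sample was labelled and hybridised to 1 Affymetrix Mouse Gene 2.0 ST array, and the values are normalized intensities on a linear scale.

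Box C/D RNAs guide 2′-O-methylation of ribosomal and small nuclear RNA and are bound by fibrillarin, Nop56, Nop58 and Snu13. H/ACA RNAs guide pseudouridylation and are bound by dyskerin (Dkc1), Nhp2, Nop10 and Gar1. Small Cajal body RNAs carry one or both kinds of box and act on spliceosomal RNAs, and a few members of the first classes serve the cleavage of the ribosomal precursor RNA instead of its modification. Most vertebrate small nucleolar RNAs are trimmed from introns of host genes, many of them genes of ribosomal proteins or of the translation machinery, while 5S RNA is transcribed by RNA polymerase III from repeated genes and binds Rpl5 and Rpl11 before it enters the large ribosomal subunit.

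Snora34 and Snora19 share bases with microRNA hairpins in the RefSeq annotation of GRCm38.p6. These hairpins are shown because the sources used here hold no other sequence that overlaps a member. In the pattern described below, Snora34 differed most between cultures of its class. Snora19 was among those that differed least, though Snora35 and Snora47 differed less. Capitals mark the bases that lie inside the annotated small nucleolar RNA.
Mir1291 hairpin: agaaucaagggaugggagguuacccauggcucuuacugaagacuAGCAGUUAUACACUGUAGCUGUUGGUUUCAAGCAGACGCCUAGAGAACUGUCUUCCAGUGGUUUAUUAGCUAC
Mir3084-2 hairpin: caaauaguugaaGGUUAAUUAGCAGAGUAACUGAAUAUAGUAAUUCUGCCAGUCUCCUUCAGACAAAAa
The Mir1291 hairpin lies at chr15:98519762-98519878 on the minus strand, and 73 of its 117 bases, those from position 45 to its 3′ end, fall in the 118-base Snora34. The Mir3084-2 hairpin lies at chr19:60774329-60774397 on the minus strand, is 69 bases long and holds all 56 annotated bases of Snora19. Snora34 sits within Kansl2, a gene of a chromatin-modifying complex, and Snora19 within Eif3a, a translation initiation factor gene. Signal of the small nucleolar RNA and of these microRNA precursors cannot be told apart from the intensities.

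The silenced gene Angpt2 had intensities of 100.2, 122 and 122 in Angpt2 shRNA-1 cells, against 195, 372 and 326 in control cells, with a log2 fold change of -1.33 (SE 0.21). The groups did not overlap, and Angpt2 ranked 3 among all named genes by p, with an adjusted p of 1.00 in limma. With the replicate number as a block Angpt2 was called, with an adjusted limma p of 0.046. All 9 melanocyte lineage markers were measured, with summed intensities of 40198 to 43361 in Angpt2 shRNA-1 cells and 41121 to 45051 in control cells. The 11 measured of 13 markers of other cells lay between 46.1 and 149, summed to 781 to 836 in Angpt2 shRNA-1 and 769 to 830 in control cells, and no marker of either list passed the test. Array medians ran from 74.6 to 76.3, and 72 of the 79 small RNAs had a mean above 88.1, the median over all named genes.

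No small RNA of the 4 classes passed the test between Angpt2 shRNA-1 and control cells (limma on log2 intensity, two-sided, Benjamini-Hochberg adjustment over all 22180 genes at 0.05). No gene of the whole table passed either, a background of 0%. At an unadjusted p under 0.05 the members gave 1 gene, Snord88c, where the table gave 835 genes or 3.76%. This count was 11 of 79 members without control replicate 1, where the table gave 1000 of 22180 genes. Without both replicate 1 arrays it was 6 of 79, where the table gave 738 of 22180. The median log2 fold change was -0.02 over the 79 members, of which 31 were positive and 48 negative, beside -0.01 over all named genes. These signs rested on single arrays, with 6 positive and 73 negative without control replicate 1, and 58 positive and 21 negative without control replicate 2. By class it was -0.03 for box C/D RNAs (17 positive, 30 negative), -0.0043 for H/ACA RNAs (12 and 14), -0.07 for Cajal body RNAs (1 and 4) and 0.13 for n-R5s136. Log2 fold changes of the members ran from -0.35 for Snora41 to 0.32 for Snord88c. In bulk RNA a lower level per cell and fewer cells with the RNA cannot be told apart.

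Snord88c, a box C/D RNA within 2410002F23Rik, had intensities of 129, 142 and 151 in Angpt2 shRNA-1 cells, against 104, 118 and 116 in control cells. Every Angpt2 shRNA-1 array was above every control array, and the log2 means were 7.13 ± 0.12 in Angpt2 shRNA-1 and 6.81 ± 0.10 in control cells (SD, n = 3 each). Its log2 fold change of 0.32 (SE 0.10, 95% interval 0.11 to 0.54) had an unadjusted limma p of 0.00784 and an adjusted p of 1.00. The groups also did not overlap for Snord91a, which was higher in Angpt2 shRNA-1 cells, and for Snora35, which was lower. Non-overlap was thus seen for 3 of 79 members, 2 higher and 1 lower, beside 9.01% of all named genes, 3.53% higher and 5.48% lower. Snord91a had intensities of 63.6, 58.4 and 59.6 in Angpt2 shRNA-1 cells, against 51.6, 56.5 and 58.3 in control cells, close to the lowest of the box C/D class. Snora35, which lies in the serotonin receptor gene Htr2c, had 79.1, 73.3 and 79.4 in Angpt2 shRNA-1 cells, against 82.6, 79.4 and 83.9 in control cells, also a dim signal, and Htr2c itself lay between 47.7 and 57.9 on the 6 arrays.

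The arrays differed in small RNA signal along another line than the groups. Expressed as log2 deviation from the mean of the 6 arrays, the median of all 79 members was -0.22 on replicate 1, 0.10 on replicate 2 and 0.08 on replicate 3 of Angpt2 shRNA-1, against -0.40, 0.32 and 0.10 on control replicates 1, 2 and 3. Both arrays numbered 1 were the lowest of their group, and control replicate 2 was the highest of all. Over all named genes these medians stayed between -0.01 and 0.02. The H/ACA medians were -0.27, 0.18 and 0.09 in Angpt2 shRNA-1 cells and -0.57, 0.40 and 0.17 in control cells. The box C/D medians spanned less, with -0.19, 0.06 and 0.07 in Angpt2 shRNA-1 cells and -0.27, 0.25 and 0.07 in control cells. The Cajal body medians were -0.15, -0.01 and 0.09 in Angpt2 shRNA-1 cells, against -0.27, 0.25 and 0.04 in control cells. For n-R5s136 the deviations were -1.04, 0.37 and 0.85 in Angpt2 shRNA-1 cells, against -1.32, 0.50 and 0.64 in control cells. This was the widest spread of the 4 classes, but it is that of 1 gene beside medians over several. Snora34 alone ran from -1.08 on control replicate 1 to 0.69 on Angpt2 shRNA-1 replicate 3.

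**Figure D1:**
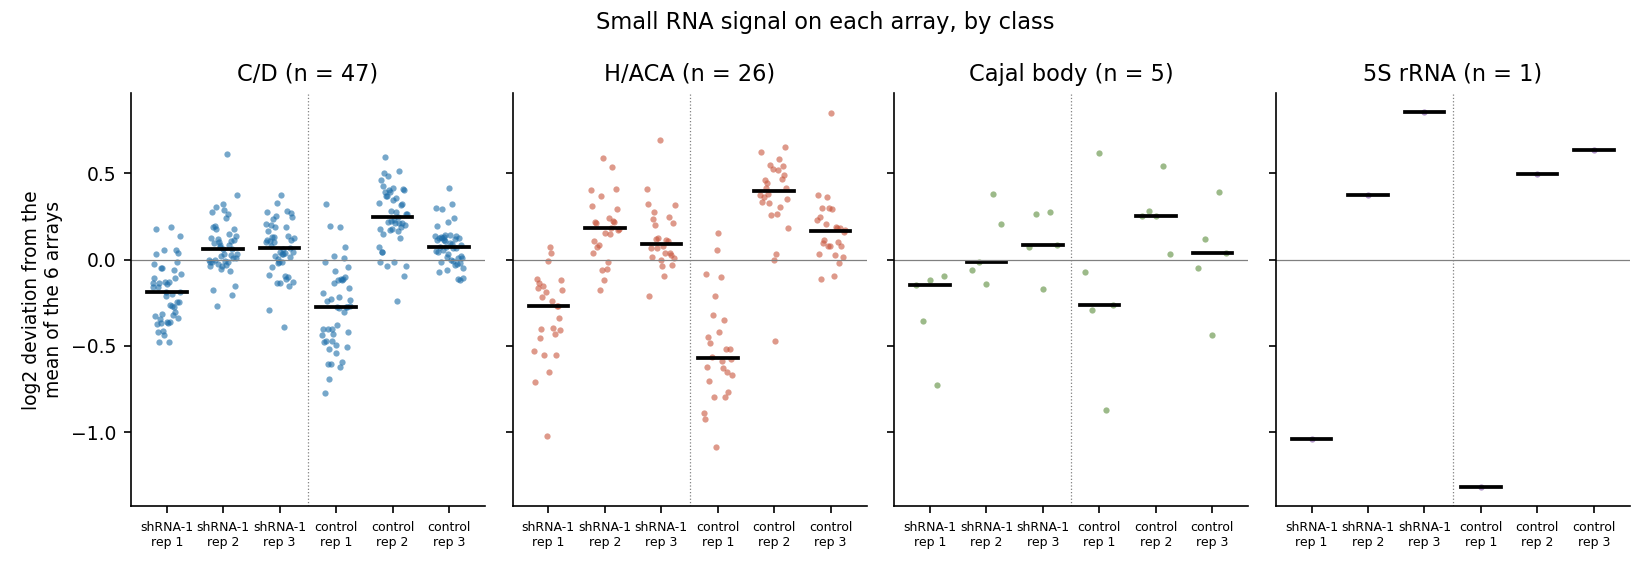
Each point is 1 small RNA on 1 array, as the log2 deviation from its mean over the 6 arrays, by class, with the class median as a black bar. Both replicate 1 arrays have the lowest median in every class, from -0.15 for Cajal body RNAs in Angpt2 shRNA-1 to -1.32 for 5S RNA in control cells, and the 5S panel holds 1 gene.

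The labels call the samples independent biological repeats and do not tie equal numbers to a shared day or plate. Each number was set against the other 2 of its group in the same way, a comparison chosen after these values were seen and given as a description with no test. Replicate 1 was lower than the mean of replicates 2 and 3 in both groups for 67 of 79 members (84.8%), beside 25.6% of all named genes, and higher in both for 5 members (6.33%), beside 27% of all named genes. Set against the mean of the other 2 arrays of its group, replicate 2 was higher in both groups for 64 members (81.0%), beside 27.3% of all named genes, and replicate 3 for 48 (60.8%), beside 27.4%. The 46 rows with several symbols, which were left out, had lower replicate 1 values in both groups in 27 cases (58.7%), with medians of -0.10 in Angpt2 shRNA-1 and -0.20 in control cells. The median difference of replicate 1 from replicates 2 and 3 was -0.31 in Angpt2 shRNA-1 cells and -0.57 in control cells on the log2 scale, or 1.24-fold less signal in Angpt2 shRNA-1 and 1.48-fold less in control cells. For all named genes it was -0.01 in Angpt2 shRNA-1 and 0.01 in control cells. The melanocyte markers had medians of 0.10 in Angpt2 shRNA-1 and 0.13 in control cells and the markers of other cells 0.07 in Angpt2 shRNA-1 and 0.09 in control cells, and their part in the small RNA signal was not tested. Across the 79 members the differences in the 2 groups were correlated (Pearson r 0.79, Spearman rho 0.71), while r was 0.13 across all 22180 genes. These points share the same 6 arrays, and the replicates were 3 per group.

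**Figure D2:**
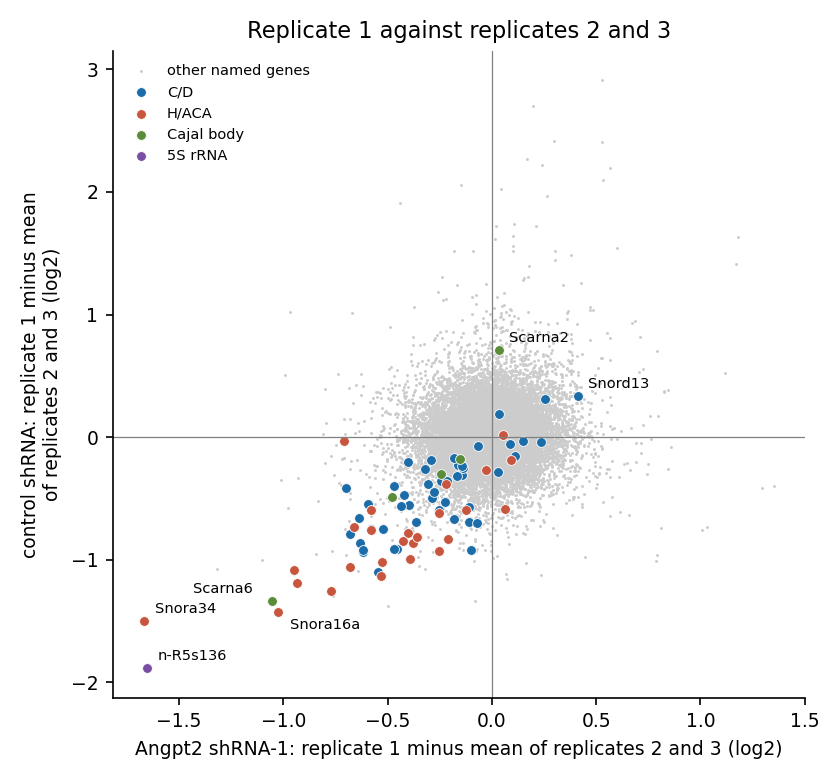
Each point is 1 gene, with replicate 1 minus the mean of replicates 2 and 3 (log2) in Angpt2 shRNA-1 cells on the x axis and in control cells on the y axis, and with other named genes in grey. The small RNAs lie mostly in the lower left, 67 of 79, with n-R5s136 and Snora34 at its far end, while the grey cloud is centred near 0.

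The 5S gene n-R5s136 showed the pattern most strongly. Its intensities were 394, 1050.1 and 1465 in Angpt2 shRNA-1 cells, against 324, 1142 and 1259 in control cells. Replicate 1 was 3.15-fold below the mean of the others in Angpt2 shRNA-1 cells and 3.70-fold below it in control cells, rank 2 among all named genes in Angpt2 shRNA-1 cells and rank 1 in control cells, counted from the lowest difference. Between the groups the log2 fold change was 0.13 (SE 0.57), and the arrays overlapped. The RefSeq table holds 69 n-R5s entries, 40 of them rRNA entries on the chromosome of n-R5s136, chromosome 8. The copies are near-identical, so the signal cannot be assigned to this copy.

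Among H/ACA RNAs, 23 of 26 were lower on replicate 1 in both groups, with medians of -0.41 in Angpt2 shRNA-1 cells and -0.82 in control cells. Snora34 had 379, 1158 and 1246 in Angpt2 shRNA-1 cells, against 363, 1109.7 and 949 in control cells, with replicate 1 differences of -1.67 in Angpt2 shRNA-1 cells, rank 1 among all named genes, and -1.50 in control cells. Between the groups its log2 fold change was 0.17 (SE 0.50). Snora16a, from the non-coding host gene Snhg12, had 462, 936 and 946 in Angpt2 shRNA-1 cells, against 398, 1166 and 978 in control cells. Snora15, within the chaperonin gene Cct6a, had 295, 563 and 567 in Angpt2 shRNA-1 cells, against 230.3, 552 and 498 in control cells, and Snora31, within the translationally controlled tumour protein gene Tpt1, had 166, 314 and 255 in Angpt2 shRNA-1 cells, against 140.2, 356 and 313 in control cells. In these 3 genes, as in Snora34, each replicate 1 array lay below all 4 arrays of replicates 2 and 3. The replicate 1 differences were -1.03 in Angpt2 shRNA-1 and -1.42 in control cells for Snora16a, -0.94 in Angpt2 shRNA-1 and -1.19 in control cells for Snora15, and -0.77 in Angpt2 shRNA-1 and -1.25 in control cells for Snora31.

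The U17 and U19 RNAs showed the order of arrays of their class. Snora73a and Snora73b are copies of U17, which is needed for cutting the ribosomal precursor in Xenopus, and both lie within Snhg3. Snora73a had 255, 359 and 315 in Angpt2 shRNA-1 cells, against 214, 448 and 303 in control cells, and Snora73b had 207, 291 and 254 in Angpt2 shRNA-1 cells, against 159, 352 and 284 in control cells. Their near-identical sequences may share probes, so they do not count as independent. Snora74a, a copy of U19 within Snhg4, had 154, 258 and 191 in Angpt2 shRNA-1 cells, against 114, 306 and 205 in control cells. For all 3 the replicate 1 array was the lowest of each group, and the groups overlapped.

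The brightest H/ACA row was that of Snora33, from the ribosomal protein gene Rps12, with 4245, 4637 and 5281 in Angpt2 shRNA-1 cells, against 4174, 5792 and 5119 in control cells. Its replicate 1 differences were small, -0.22 in Angpt2 shRNA-1 and -0.38 in control cells, while its dimmer row, with a mean of 159, gave -0.59 in Angpt2 shRNA-1 cells and -0.95 in control cells. The log2 fold change between the groups was -0.08 for the bright row and -0.11 for the dim one. Snora23 had 545, 866 and 879.5 in Angpt2 shRNA-1 cells, against 458, 996 and 918 in control cells, and Snora21 had 1383, 1766 and 1539 in Angpt2 shRNA-1 cells, against 1116, 2097 and 1406 in control cells. Snora23 was again lowest on the 2 replicate 1 arrays, whereas for Snora21 replicate 3 came close to replicate 1 in Angpt2 shRNA-1 cells. Snora41, within the elongation factor gene Eef1b2, departed from the rest of its class with 74.4, 129.9 and 114 in Angpt2 shRNA-1 cells, against 129.8, 84.0 and 210.1 in control cells. The array order differed between its groups, and it had the most negative log2 fold change of all members, -0.35 (SE 0.31, 95% interval -1.05 to 0.35). Its differences within replicates 1, 2 and 3 were -0.80, 0.63 and -0.88.

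Snora19, the RNA inside the Mir3084-2 hairpin shown above, was the dimmest H/ACA RNA and had 65.4, 72.7 and 61.1 in Angpt2 shRNA-1 cells, against 66.9, 89.2 and 72.5 in control cells. Its replicate 1 differences were -0.03 in Angpt2 shRNA-1 and -0.27 in control cells, within a range where low signal and background cannot be separated. Its 2 rows held identical values. Of the 3 H/ACA RNAs that were not lower on replicate 1 in both groups, Snora44 and Snora47 were lower in control cells alone and Snora35 in neither group. The 15 H/ACA RNAs outside the rule for named genes had intensities from 56.1 to 578, log2 fold changes from -0.35 (Snora41) to 0.21 (Snora7a) and lower replicate 1 values in both groups in 13 cases.

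**Figure D3:**
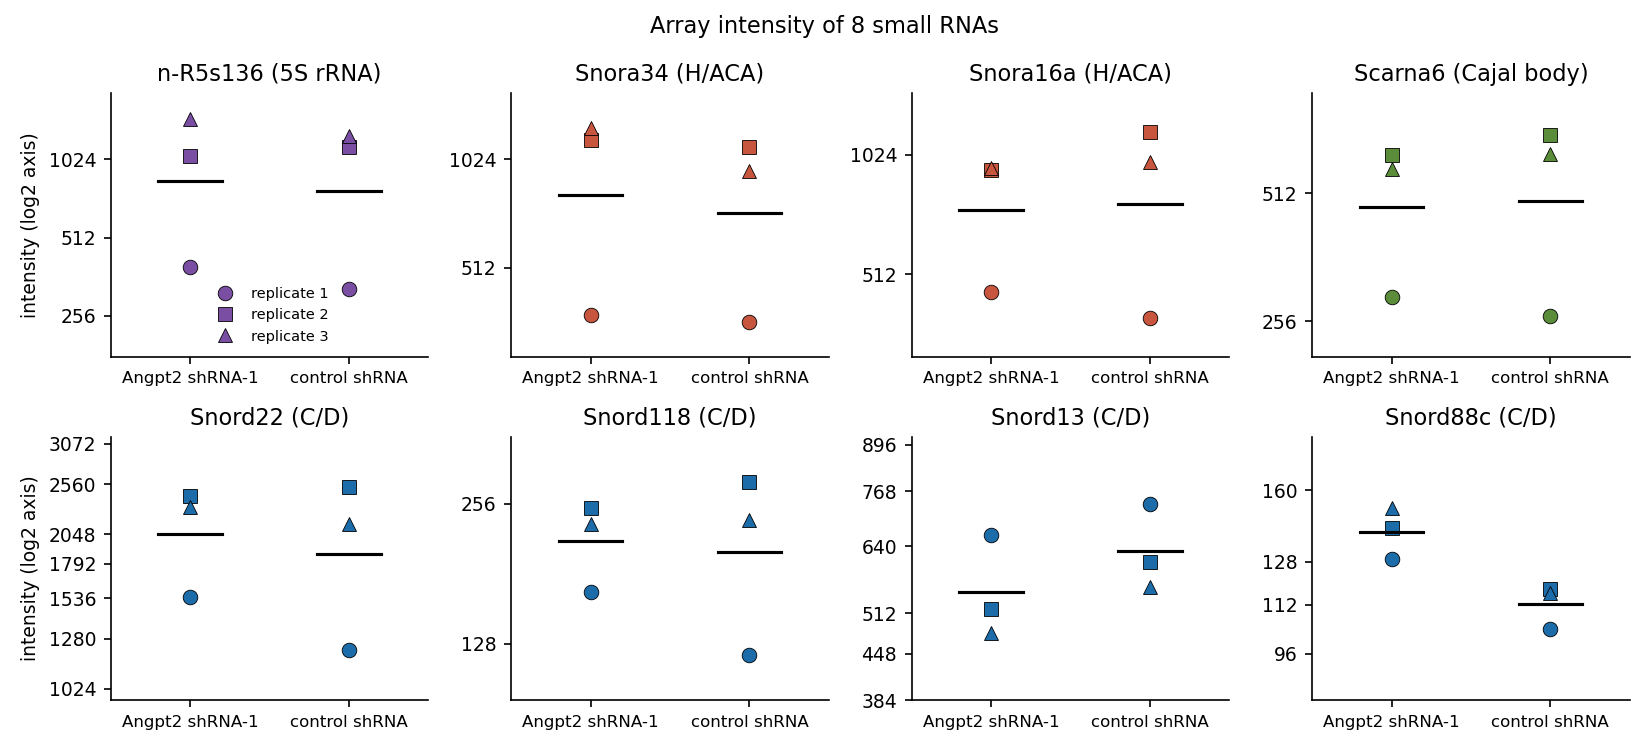
Normalized intensity on a log2 axis for 8 small RNAs in Angpt2 shRNA-1 and control cells, with the replicate number as the symbol and the mean of the log2 values as a bar. Replicate 1 is the lowest array in both groups for 7 of the 8 and the highest for Snord13, and only for Snord88c do the groups not overlap.

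Box C/D RNAs differed less between replicates. Replicate 1 was lower in both groups for 39 of 47, with medians of -0.25 in Angpt2 shRNA-1 cells and -0.44 in control cells. Snord118, the U8 RNA that is needed for the large-subunit RNAs in Xenopus, had 165, 250.3 and 232 in Angpt2 shRNA-1 cells, against 121, 285 and 236 in control cells. Snord22, from the non-coding Snhg1 and needed for small-subunit RNA in Xenopus, had 1544, 2428 and 2307 in Angpt2 shRNA-1 cells, against 1217, 2530.2 and 2144 in control cells. Snord17, within Snx5, had 231, 353 and 355 in Angpt2 shRNA-1 cells, against 203, 438 and 339 in control cells. In all 3 the replicate 1 arrays were the 2 lowest of the 6, and the log2 fold changes between the groups were 0.08, 0.13 and -0.02. Snord69, within the nucleolar GTPase gene Gnl3, had 531, 1043 and 697 in Angpt2 shRNA-1 cells, against 443, 824 and 714 in control cells, with replicate 2 high in both groups.

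The 5 box C/D rows with the highest mean had replicate 1 differences of several sizes. Snord82, within the nucleolin gene Ncl, had 2661, 2912 and 2669 in Angpt2 shRNA-1 cells, against 2879.6, 3266 and 2811 in control cells. Snord49b had 2316, 2574 and 2602 in Angpt2 shRNA-1 cells, against 2517, 3205 and 2698 in control cells, and Snord110, within Nop56, had 2390.2, 2505 and 2786 in Angpt2 shRNA-1 cells, against 2248, 2906 and 2669.9 in control cells. Snord47, the only measured RNA of the Gas5 gene, had 2512, 2324 and 2202 in Angpt2 shRNA-1 cells, against 2454, 2720.3 and 2319 in control cells. Snord87 had 1775, 2117 and 2209 in Angpt2 shRNA-1 cells, against 1745, 2632 and 2299.9 in control cells. Across these 5 RNAs no value was more than 1.51 times another of the same RNA, and control replicate 2 was the highest array in each. Snord87 had replicate 1 differences of -0.29 in Angpt2 shRNA-1 and -0.50 in control cells, beyond the class medians, where Snord82 had -0.07 in both groups. Within the class, rho of mean intensity with the difference was -0.06 in Angpt2 shRNA-1 and 0.11 in control cells (n = 47). Between the groups their log2 fold changes were -0.12, -0.16, -0.02, -0.09 and -0.12. Snord35a, the measured member of the Rpl13a group, had 937, 1191 and 1326 in Angpt2 shRNA-1 cells, against 1035, 1564 and 1309.7 in control cells, with a log2 fold change of -0.17 (SE 0.17). RNAs of the Rpl13a introns are known as mediators of lipid-induced stress in cultured rodent cells. The Snord113 to Snord116 families and Snord14 were not analysed here.

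Snord13, the U13 RNA with a role in maturing small-subunit RNA in human cells, ran the other way. It had 664, 520.0 and 479.8 in Angpt2 shRNA-1 cells, against 735, 606 and 559 in control cells, with replicate 1 the highest array of each group (0.41 in Angpt2 shRNA-1 and 0.34 in control cells). Unlike most of its class it is transcribed from its own gene, and no annotated gene contained it here. Snord118 and Snord89 also had no containing gene, yet both were lower on replicate 1 in both groups. The differences were -0.55 in Angpt2 shRNA-1 and -1.10 in control cells for Snord118. For Snord89 they were -0.32 in Angpt2 shRNA-1 and -0.26 in control cells. Like Snord13, Snord70 within Nop58 was higher on replicate 1 in both groups (0.26 in Angpt2 shRNA-1 and 0.31 in control cells). So was Snord23 (0.03 in Angpt2 shRNA-1 and 0.19 in control cells). Snord47, Snord73b, Snord85, Snord91a and Snord123 were lower on replicate 1 in control cells alone. The 33 box C/D RNAs outside the rule for named genes had intensities from 43.7 to 1848 and log2 fold changes from -0.25 (Snord89) to 0.25 (Snord111), and 29 of them were lower on replicate 1 in both groups. By its mean, Snord85 was the dimmest member of all, with 56.6, 47.2 and 49.0 in Angpt2 shRNA-1 cells, against 57.3, 63.0 and 54.9 in control cells.

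The 5 Cajal body RNAs did not move together. Scarna6 had 292, 628 and 584 in Angpt2 shRNA-1 cells, against 264, 703 and 633 in control cells, with replicate 1 differences of -1.05 in Angpt2 shRNA-1 and -1.34 in control cells. Scarna17 had 530.5, 672 and 814 in Angpt2 shRNA-1 cells, against 554, 824 and 738 in control cells, and Scarna10, known as U85 and a guide for U5 small nuclear RNA in human cells, had 821, 873 and 955 in Angpt2 shRNA-1 cells, against 863, 1084 and 880.1 in control cells. The dim Scarna8 had 80.1, 98.9 and 90.9 in Angpt2 shRNA-1 cells, against 71.2, 87.5 and 87.8 in control cells. These 4 were lower on replicate 1 in both groups, steeply in Scarna6 and slightly in Scarna10. Scarna2, which guides methylation of U2 small nuclear RNA in human cells, had 647, 639 and 626 in Angpt2 shRNA-1 cells, against 1078, 837 and 519 in control cells. It was level in Angpt2 shRNA-1 cells and highest on replicate 1 in control cells, and its log2 fold change was -0.29 (SE 0.22).

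Most of the genes that were much lower on replicate 1 in both groups were members. Of the 40 named genes at least 0.5 lower on the log2 scale in both groups (0.18% of all), 22 were members (55%), whereas members are 0.356% of the named genes. These 22 comprised 11 H/ACA RNAs, 9 box C/D RNAs, Scarna6 and n-R5s136, and 14 of the other 18 genes were protein-coding. Just inside this limit lay Snord15a (-0.52 in Angpt2 shRNA-1 cells and -0.75 in control cells), and just outside lay Snord35b (-0.47 in Angpt2 shRNA-1 and -0.91 in control cells). Of the 10 genes that were lowest in both groups, 7 were members. A further 20 genes were at least 0.5 higher on replicate 1 in both groups, none of them a member. Among these, Chac1, a glutathione-degrading enzyme of the stress response, had 558, 218 and 650.0 in Angpt2 shRNA-1 cells, against 1316, 194 and 428 in control cells. The part of such culture differences in the small RNA signal was not tested.

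Annotated length went with the size of the difference between the classes. The 29 members over 100 nucleotides had medians of -0.53 in Angpt2 shRNA-1 cells and -0.85 in control cells, and the 50 members of 100 nucleotides or less had -0.23 in Angpt2 shRNA-1 and -0.41 in control cells. The 4 box C/D RNAs over 100 nucleotides, Snord17 (221), Snord15a (148), Snord118 (137) and Snord22 (126), had -0.58 in Angpt2 shRNA-1 and -0.93 in control cells, and the other 43 had -0.22 in Angpt2 shRNA-1 and -0.40 in control cells. Within H/ACA RNAs, the 22 longer ones had -0.48 in Angpt2 shRNA-1 and -0.82 in control cells, and the 4 shorter ones -0.32 in Angpt2 shRNA-1 and -0.73 in control cells. Over all 79 members the Spearman rho of length with the difference was -0.35 in Angpt2 shRNA-1 cells and -0.44 in control cells. It was weaker within a class, with -0.12 in Angpt2 shRNA-1 and -0.08 in control cells over 47 box C/D RNAs, and -0.16 in Angpt2 shRNA-1 and -0.32 in control cells over 26 H/ACA RNAs. With mean intensity in place of length, rho over the 79 was -0.11 in Angpt2 shRNA-1 and 0.0023 in control cells. Lengths are those of the RefSeq entries, some of which look partial, such as the 61 nucleotides of Scarna2.

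**Figure D4:**
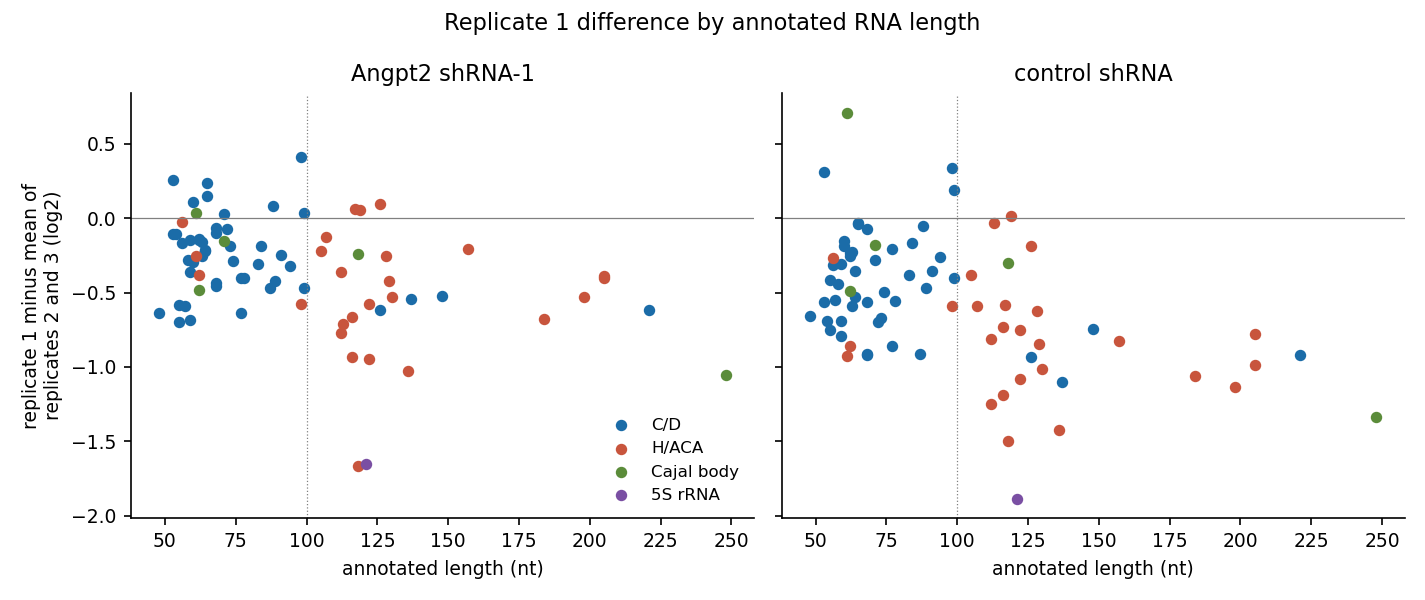
Annotated length in nucleotides (x axis) against replicate 1 minus the mean of replicates 2 and 3 (log2, y axis) for the 79 members, in Angpt2 shRNA-1 cells on the left and control cells on the right. Members right of the dotted line at 100 nucleotides have medians of -0.53 in Angpt2 shRNA-1 and -0.85 in control cells, those left of it -0.23 in Angpt2 shRNA-1 and -0.41 in control cells.

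Host genes differed less between replicates than the small RNAs they contain. For 58 members exactly 1 gene with a row of its own contained the RNA in the RefSeq table, 44 hosts in all. The median difference of replicate 1 was -0.33 in Angpt2 shRNA-1 cells and -0.59 in control cells for these members, and -0.06 in Angpt2 shRNA-1 and -0.07 in control cells for their hosts. Lower values in both groups were found for 51 of the 58 members and for 20 of the 44 hosts (45.5%), beside 25.6% of all named genes, and 45 members were more negative than their host in both groups. Snhg12 carries 4 members and lay at 106, 116 and 98.1 in Angpt2 shRNA-1 cells, against 125, 124 and 105 in control cells, with replicate 1 differences of -0.01 in Angpt2 shRNA-1 and 0.14 in control cells. From the same transcript Snora16a had -1.03 in Angpt2 shRNA-1 and -1.42 in control cells, Snora61 -0.38 in Angpt2 shRNA-1 and -0.86 in control cells, Snord99 -0.17 in Angpt2 shRNA-1 and -0.31 in control cells, and Snora44 0.06 in Angpt2 shRNA-1 and -0.58 in control cells. The 4 RNAs of this host were thus unequal, and Snora44 was level in Angpt2 shRNA-1 cells. Snhg12 itself had a mean of 112, beside a median of 88.1 over all named genes. Whether a difference would show at that level was not tested. Replicate 1 was at least 0.5 lower in control cells for 4 of the 44 hosts. Among them were Snhg3 and Snhg4, the hosts of the U17 and U19 copies, with -0.12 in Angpt2 shRNA-1 and -0.80 in control cells for Snhg3 and -0.28 in Angpt2 shRNA-1 and -0.94 in control cells for Snhg4. The others were 2410002F23Rik, the host of Snord88a and Snord88c, with -0.17 in Angpt2 shRNA-1 and -0.76 in control cells, and the condensin gene Ncapd2, with -0.10 in Angpt2 shRNA-1 and -0.67 in control cells.

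Between the groups the hosts had a median log2 fold change of 0.01 and their members -0.02, and no host passed the test. Kansl2, the host of Snora34 and Snora2b, had 547, 456 and 442 in Angpt2 shRNA-1 cells, against 588, 637 and 597 in control cells, with a log2 fold change of -0.34 (SE 0.10) and no overlap, and is named because it holds Snora34. Its 2 small RNAs were at 0.17 and 0.05. Without a block their 95% intervals, -0.96 to 1.31 for Snora34 and -0.45 to 0.54 for Snora2b, include the host's value. With the replicate number as a block they ran from -0.06 to 0.40 for Snora34 and from -0.24 to 0.34 for Snora2b. These did not include the host's value. Neither RNA was tested against the host. In a separate list of 45 known host transcripts, 36 were measured, 18 positive and 18 negative, and none passed the test. On replicate 1 this list had medians of -0.06 in Angpt2 shRNA-1 and -0.17 in control cells. Lower values in both groups were found for 20 of the 36, beside 25.6% of all named genes. Some of these differed as much as box C/D RNAs did at the median. Eif4a1 had -0.38 in Angpt2 shRNA-1 and -0.46 in control cells, and Snhg17 had -0.36 in Angpt2 shRNA-1 and -0.53 in control cells.

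Of 8 genes of core proteins that bind these RNAs 7 were measured, as RNA and not as protein. Of these, 4 had a positive and 3 a negative log2 fold change, and none passed the test. Nop56 and Nop58, of the box C/D particle, were both at -0.03, and Snu13 was at 0.02. Among the H/ACA proteins, Nhp2 was at 0.06, Nop10 at -0.01, Gar1 at 0.03 and Dkc1, the pseudouridine synthase, at 0.32 (SE 0.14, 95% interval 0.0024 to 0.63, unadjusted limma p 0.0486, adjusted p 1.00). Dkc1 had 1469.7, 1624 and 1294 in Angpt2 shRNA-1 cells, against 981, 1400.1 and 1165 in control cells, and its groups overlapped. On replicate 1 these 7 genes had medians of -0.02 in Angpt2 shRNA-1 cells and -0.17 in control cells. All 14 assembly and Cajal body factors were measured, 10 positive and 4 negative, with no gene past the test and replicate 1 medians of -0.07 in Angpt2 shRNA-1 and -0.12 in control cells. Nolc1, a chaperone of both particle classes that shuttles between nucleolus and Cajal body, stood apart with 866, 1722 and 1399 in Angpt2 shRNA-1 cells, against 678, 1036 and 1662 in control cells. Its replicate 1 differences, -0.84 in Angpt2 shRNA-1 and -0.95 in control cells, were lower than the H/ACA medians of -0.41 in Angpt2 shRNA-1 and -0.82 in control cells, and 4 of the 26 H/ACA RNAs lay below Nolc1 in Angpt2 shRNA-1 cells and 9 in control cells.

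For 5S RNA, 24 of 26 genes of its transcription and particle were measured, 13 positive and 11 negative, and none passed the test. The largest log2 fold change was 0.20 (SE 0.18) for the polymerase subunit gene Polr3g. The genes of the 5S-binding proteins Rpl5 and Rpl11 were at 0.18 and -0.11. Their rows had mean intensities of 211 for Rpl5 and 94.2 for Rpl11, the latter close to 88.1, the median over all named genes. The replicate 1 medians of this list were -0.03 in Angpt2 shRNA-1 cells and -0.08 in control cells, where n-R5s136 had -1.65 in Angpt2 shRNA-1 and -1.89 in control cells. Other small non-coding RNAs differed among themselves. Of 15 polymerase III and capped small RNAs 10 were measured, 9 of them lower on replicate 1 in both groups, with medians of -0.23 in Angpt2 shRNA-1 and -0.29 in control cells. The Y RNA Rny1 had -0.47 in Angpt2 shRNA-1 and -0.51 in control cells, and U3 RNA (Rnu3a), a box C/D RNA of precursor cleavage, had -0.35 in Angpt2 shRNA-1 and -0.98 in control cells. The exception was Rn7sk, an inhibitor of the elongation factor P-TEFb, at -0.04 in Angpt2 shRNA-1 and 0.0060 in control cells. Its mean intensity of 10909 was the highest of all named genes. Whether a difference would show at that level was not tested. None of the 10 passed the test between the groups. Of 8 genes that RefSeq calls small nucleolar RNAs but whose symbols fall outside the rule, such as AF357355, 3 were lower on replicate 1 in both groups, with medians of -0.07 in Angpt2 shRNA-1 and -0.02 in control cells, close to those of all genes. These 8 had mean intensities from 41.7 to 135.5. Only the brightest, Gm12238, lay above 88.1, the median over all named genes. Its replicate 1 differences were -0.34 in Angpt2 shRNA-1 and -0.57 in control cells. Whether a difference would show in the dimmer ones was not tested. Rows of 478 microRNA genes had medians of -0.03 in Angpt2 shRNA-1 and -0.01 in control cells, close to those of all genes.

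Fitting the replicate number as a block took this shared variation out of the comparison of Angpt2 shRNA-1 with control cells. Without the block, the median standard error of a member's log2 fold change was 0.18, beside 0.10 over all named genes, and by class it was 0.16 for box C/D RNAs, 0.24 for H/ACA RNAs, 0.18 for Cajal body RNAs and 0.57 for n-R5s136. With it, the members' median was 0.10, as over all named genes, and by class 0.10, 0.12, 0.11 and 0.11. The ratio was 1.74 for members and 1.04 for all genes. No member was called with the block, where 2 genes of the table were (0.00902%), Angpt2 and Pld4, a member of the phospholipase D family. At an unadjusted p under 0.05, 3 members were listed, Snord88c (0.32), Snord111 (0.25) and Snord71 (-0.25), where the table gave 1015 genes or 4.58%.

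The data bound the group difference differently in the 2 fits. The 95% interval of a member's log2 fold change reached 0.41 to either side at the median without the block, or 1.33-fold, and 0.24 with it, or 1.18-fold. For n-R5s136 it ran from -1.15 to 1.41 without the block and from -0.12 to 0.37 with it. Within replicates 1, 2 and 3 the median difference of the members between the groups was 0.11, -0.23 and -0.01. For H/ACA RNAs it was 0.24, -0.25 and -0.06, for box C/D RNAs 0.05, -0.23 and -0.02, and for Cajal body RNAs -0.06, -0.29 and 0.12. The signs did not hold over the 3 pairs in any class.

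**Figure D5:**
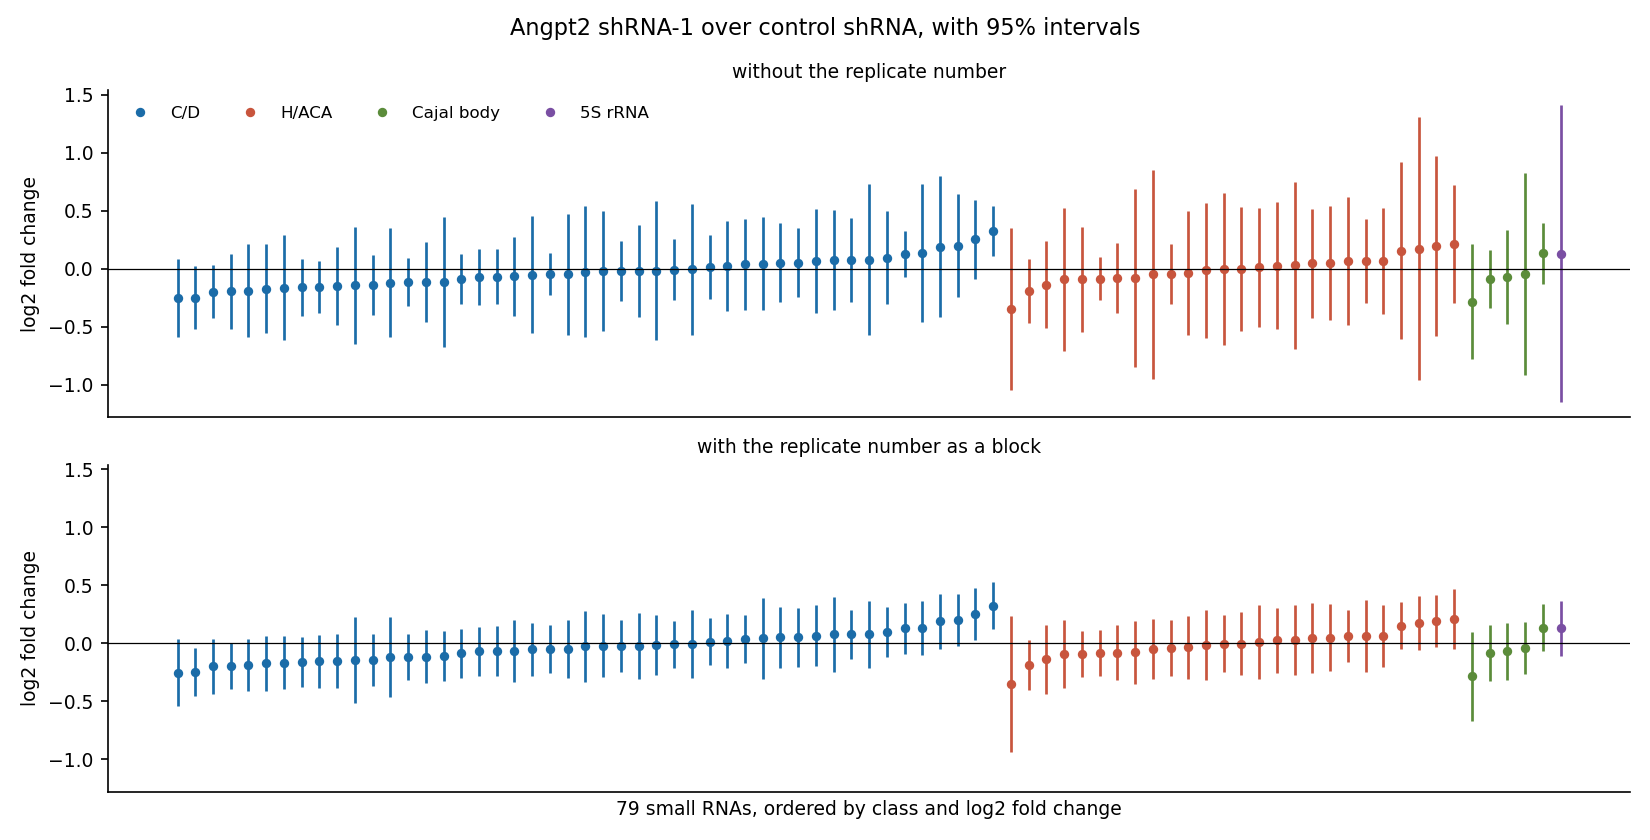
Log2 fold change of Angpt2 shRNA-1 over control shRNA with its 95% interval for the 79 members, ordered by class and value, without (top) and with (bottom) the replicate number as a block. The interval excludes 0 for 1 member without the block and for 3 with it, and the intervals reach 0.41 to either side at the median without it and 0.24 with it.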

How the data were processed

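The deposited series table holds 1 normalized intensity per transcript cluster and array. The sources used here do not give the authors' background correction and normalization. Values between 28.1 and 12624 show a linear scale. Of 41345 rows, 40425 were complete and 23521 had 1 gene symbol. The row with the highest mean was kept per gene, which left 22180 genes. No detection calls were used, so low signal cannot be told from background, and the 3 arrays per group limit the precision. Within-group correlations of log2 values were 0.978 to 0.990.

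The groups' log2 intensities were tested in limma 3.58.1 under R 4.3.3 (lmFit, then eBayes), two-sided, over all named genes, with Benjamini-Hochberg adjustment at 0.05. p-values are from this fit unless the replicate block, another limma fit, is named. Every fold change is Angpt2 shRNA-1 over control shRNA. The fit was tested on simulated data. Members and lists were chosen with earlier results of these data known. Genes named by rule were called members, the 5 brightest of each class, up to 4 per direction without overlap, the 3 with the largest spread, the dimmest, and set families. The others were chosen after their values were seen. Same-numbered arrays deviated together across all genes (r 0.13, 0.21 and 0.14), so the number was treated as a pair and fitted as a block as an alternative. Over the 79 members r was 0.79, 0.46 and 0.51 for numbers 1, 2 and 3. Crossing numbers 2 and 3 gave the members 0.49 (Angpt2 shRNA-1 replicate 2) and 0.39 (Angpt2 shRNA-1 replicate 3). For the members replicate 1 thus stood apart, while numbers 2 and 3 were not distinct pairs. Host genes were assigned by containment in the RefSeq GRCm38.p6 table, which has no strand, so containment on either strand counted. All 79 members matched that table. Other alternatives were quantile normalization, centring, a filter on dim genes, the mean of rows, all complete rows, trend and robust options, a pseudocount of 16 and leaving out each array.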

Additional observations from a re-analysis of the deposited data

How the results depend on the processing

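No member of any class was called under any alternative run. Over all named genes the count of called genes was 0, against 2 with the replicate block (Angpt2 and Pld4), 1 with each array centred on its median (Pld4), 1 with trend and robust options (Pld4), 1 without both replicate 1 arrays (Angpt2, added after seeing the data), and 0 to 2 with single arrays left out (1, Angpt2, without control replicate 1 and 2, Btbd35f12 and Plekho1, without control replicate 2). With single arrays left out, the median log2 fold change ranged from -0.22 (without control replicate 1) to 0.15 (without control replicate 2) over all members, from -0.17 to 0.09 for box C/D RNAs, from -0.27 to 0.21 for H/ACA RNAs, from -0.19 to 0.09 for Cajal body RNAs and from -0.50 to 0.68 for n-R5s136, so the sign of these medians rested on single arrays. Without both replicate 1 arrays the median over all members was -0.11. Members at an unadjusted p under 0.05 numbered 1 in the fit reported, 3 with the replicate block, 11 without control replicate 1 and 6 without both replicate 1 arrays. Over the 22180 named genes these counts were 835 (3.76%), 1015 (4.58%), 1000 and 738. Of 31 named members 12 kept their sign in every alternative, and 43 of the 48 sign changes came with arrays left out. With 3 arrays per group, intervals of the members were wide without the replicate block, and the labels do not state what the replicate number stands for.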
